A study of Mus musculus with 143 samples.

Results

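RNA polymerase II was profiled by CUT&Tag in control mouse oocytes at 2 stages, and the 6 peak lists concerned are described here: 3 libraries of germinal vesicle (GV) oocytes from adults and 3 of oocytes at p20, read here as postnatal day 20. They were chosen by their sample titles, out of 143 samples in a series on oocytes that lack RNases of the RNA exosome. Each sample was a bulk pool of fresh, unfixed oocytes of genotype control; the labels give no strain, allele, number of oocytes or animals, and no statement that libraries of a group came from separate animals, so every p-value measures only the spread between these libraries. CUT&Tag tethers a transposase to an antibody on chromatin and sequences the fragments it cuts out. The titles abbreviate the target as pols2s5, and the antibody is not described further in the sources used here. The labels name no deletion and no treatment in either group, and all 6 libraries carry the same protocol text.

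A growing mouse oocyte transcribes and stores the RNA that carries it through meiosis and the first divisions of the embryo. As a fully grown GV oocyte condenses its chromatin around the nucleolus, transcription by RNA polymerase II (Pol II) falls to very low levels and stays low until the embryo's genome is activated. During transcription the tail of the largest Pol II subunit is phosphorylated, with serine 5 phosphorylation typical of polymerase near gene starts and serine 2 phosphorylation accumulating in the gene body and towards the 3′ end, where it continues past the cleavage site before release. The comparison of adult GV with p20 asks where on the genome Pol II was found before and at this end of growth.

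Each peak list gives an interval and its signal: the total signal is the fragment pileup summed over the peak's bases, and signal per base is that sum divided by length. The authors sampled every library to 3000000 reads without removing duplicates, so the lists show where a fixed number of reads lay and not how much Pol II an oocyte held. In pooled oocytes, fewer oocytes with Pol II at a site and less Pol II per oocyte cannot be told apart. The weakest peak kept also differed between the groups: the lowest total signal of a listed peak was 3002, 1869 and 1928 in adult GV libraries 1 to 3 against 103, 102 and 102 at p20. The number of peaks moved with this floor inside another group too: 3 adult GV libraries of Dis3-deleted oocytes, made with the same assay, had floors of 102, 1890 and 102 and listed 88697, 30311 and 122606 peaks. Counts were therefore repeated with peaks of at least 3002 in every library, a common floor chosen after the data were seen. In the Dis3-deleted lists 46.3, 7.73 and 64.9% of peaks lay below it, which left lists 1 and 3 longer than list 2. The part of each list's own floor in the stage difference was not tested. Adult GV library 1 had the highest floor and the fewest peaks of the 6, and the main measures are also given without it, which for counts of genes with a peak, overlaps and coverage along genes was chosen after the data were seen.

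The label of oocytes was checked against marker genes. Of 11 oocyte markers, 9 carried a peak in at least 1 adult GV library and 8 in at least 1 p20 library, and their summed signal per base was 19.8 to 24.2 in adult GV and 20.6 to 28.5 at p20. Nlrp5 and Zp2 made up most of it, while the germ cell genes Nobox and Dazl had no peak in any library. Of all 34324 genes, 42.6% had no peak in any library. Of 21 granulosa and cumulus cell markers, 13 had none in any library, among them Fshr, Foxl2, Inha and Wt1. A peak in all 3 p20 libraries was held by 5 of these markers, and in all 3 adult GV libraries by 1. Their summed signal per base was 0.809 to 3.63 in adult GV and 6.20 to 9.93 at p20, carried by Nr5a1 and Amh. These markers moved with the stage, and their part in the results below was not tested.

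The adult GV libraries held fewer peaks and less covered genome than the p20 libraries. Adult GV libraries 1 to 3 listed 19697, 35843 and 30892 peaks, and p20 libraries 1 to 3 listed 74287, 82446 and 80765. Every adult GV library lay below every p20 library, with a mean of 28811 ± 8272 (SD, n = 3) against 79166 ± 4308, so that p20 had 2.83-fold more peaks by geometric means (exact permutation p = 0.1, two-sided, the smallest p that 3 against 3 can give; adjusted 0.1 over number, length, total signal and width). Peaks covered 13.3, 24.3 and 21.1 Mb in adult GV and 49.0, 49.99 and 52.3 Mb at p20, a 2.66-fold difference without overlap (exact permutation p = 0.1). Above the common floor the peaks numbered 19697, 32324 and 28576 in adult GV against 47336, 42256 and 47062 at p20. The difference was 1.73-fold in number and 1.85-fold in length, again without overlap. As the Dis3-deleted lists also stayed unequal above this floor, it need not make lists with different floors of their own comparable. Without adult GV library 1, the log2 difference (adult GV minus p20) was −1.25 in number and −1.15 in length, against −1.50 and −1.41 with it. Above the median total signal of 4210 the log2 difference in number, adult GV minus p20, was −0.34 and the groups overlapped (exact permutation p = 0.2).

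The peaks listed for adult GV had more signal per base. Mean signal per base of peak was 17.7, 11.5 and 12.6 in adult GV and 7.55, 6.46 and 6.91 at p20, and each adult GV library lay above each p20 library. The means of 13.9 ± 3.31 and 6.97 ± 0.550 (n = 3 each) differed 1.96-fold by geometric means (exact permutation p = 0.1), and at the common floor the values were 17.7, 12.1 and 13.1 against 9.23, 8.44 and 8.69. The total signal in all peaks differed less than their number did, at 235, 279 and 266 in adult GV against 370, 323 and 361 at p20, in units of 1000000. It was 1.35-fold higher at p20 (exact permutation p = 0.1), but 1.15-fold at the common floor, where the groups overlapped (exact permutation p = 0.3). The direction of peak width depended on the floor: the mean was 679 ± 4.88 bp in adult GV and 638 ± 27.9 bp at p20, and 685 against 732 bp at the common floor. Broad peaks over 5 kb were few, 6 to 16 in adult GV and 37 to 65 at p20.

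**Figure D1:**
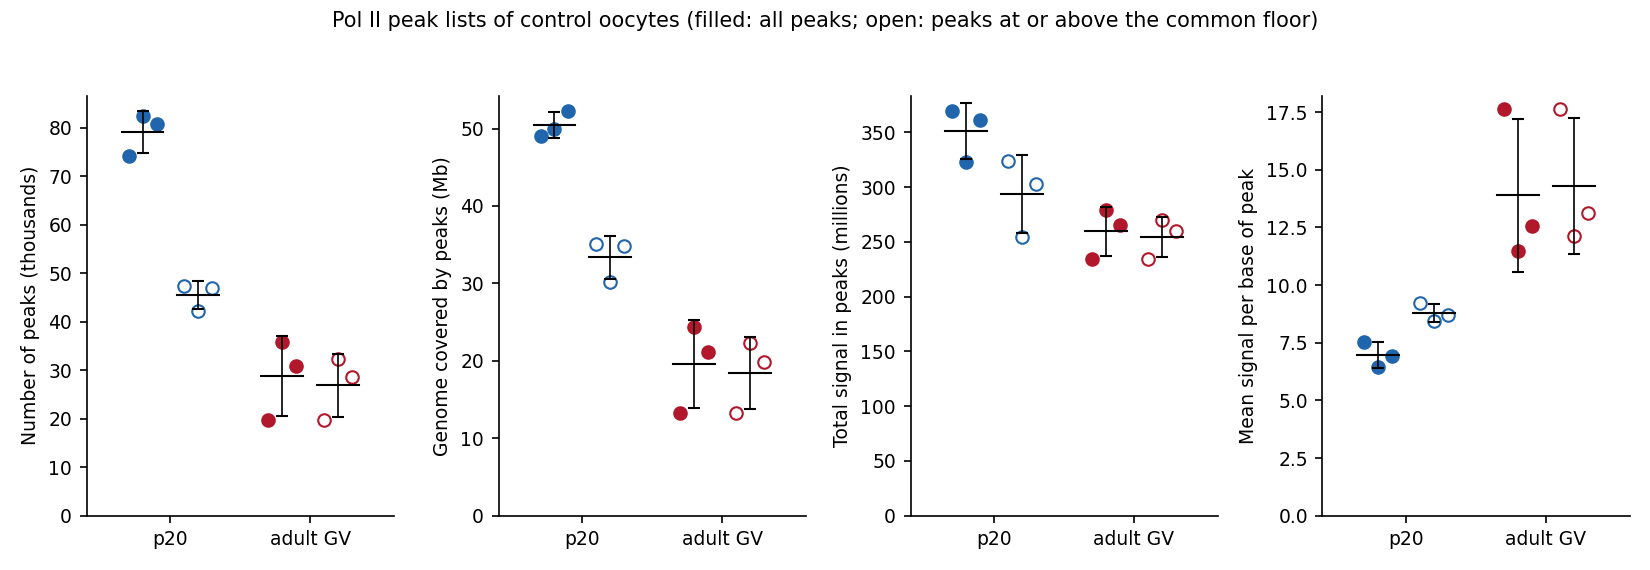
Number of peaks (in units of 1000), covered length in Mb, total signal and mean signal per base of peak in each of the 3 adult GV and 3 p20 libraries, for all deposited peaks and for peaks at or above the common floor of total signal; total signal is in units of 1000000; points are libraries, lines are means and bars SD (n = 3). The p20 libraries lie above all adult GV libraries in number and length, and below all of them in signal per base, with all peaks (filled) and above the floor (open).

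The shares of peak bases in promoters, gene bodies and between genes did not separate the stages when all peaks were used. Gene bodies held 72.5 ± 0.833% of peak bases in adult GV and 70.9 ± 0.770% at p20 (n = 3 each; exact permutation p = 0.2). Promoters, taken as 1 kb either side of a start, held 2.58 ± 0.197% and 2.68 ± 0.120% (exact permutation p = 0.4), and sequence between genes held 24.9 ± 0.960% and 26.4 ± 0.698% (exact permutation p = 0.2). In all 3 classes the libraries of the stages overlapped. The order turned with peaks above the common floor, where gene bodies held 73.1% in adult GV against 75.8% at p20 and sequence between genes 24.2% against 21.2%, each without overlap (exact permutation p = 0.1). There the promoter share was 2.64% (2.43 to 2.89%) in adult GV against 3.07% (2.92 to 3.24%) at p20, also without overlap (exact permutation p = 0.1). The share of promoters with a peak did not overlap between the stages with either set of peaks, 2.56, 4.83 and 3.68% in adult GV libraries and 8.28, 9.98 and 9.19% in p20 libraries (exact permutation p = 0.1; adjusted 0.267). These means were 3.53% and 6.59% with the common floor.

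Overlap between libraries showed how far single peaks recurred. A median of 33.8% of the peaks of an adult GV library overlapped a peak of a p20 library by at least 1 bp (31.6 to 38.6% over the pairs of libraries), against 18.9% (13.3 to 24.6%) for another adult GV library. In the other direction, 12.8% of p20 peaks were matched in an adult GV library (9.07 to 16.4%) and 29.5% in another p20 library (28.0 to 32.3%). Without adult GV library 1 the first 3 medians were 33.0, 18.9 and 14.3%. These shares depend on how much each library covers, and above the common floor they were 28.3, 18.8, 16.3 and 30.1% in the same order. Of 202238 regions made by joining overlapping peaks of all 6 libraries, 115458 rested on 1 p20 library alone. Regions held by all 3 libraries of both stages numbered 1827 and were long, with a median of 3977 bp. A further 3796 regions had a peak in all 3 p20 libraries and no adult GV library, with a median of 1304 bp, and 54 had the opposite pattern. With the common floor, 135309 regions remained and the last 2 counts were 1517 and 104.

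The gene start is where the polymerase is loaded, and 4 promoters are shown. A Pol II peak lay at each in all 6 libraries, or in the 3 p20 libraries with no adult GV peak. They are a choice among the named genes with such starts, which are counted below. Neurog3 had the most signal at its start, and Nelfb belongs to a gene list. Rps13 and Polr2j are list members that passed the gene test described below, a call that is not used as support. The sequences are RefSeq's for GRCm38.p6, from 250 bases before to 50 bases after the start, 5′ to 3′ on the gene's strand. Capitals mark TATAAA (the letters of a TATA box), CCAAT and GGGCGG (the GC box) on either strand, and these motifs do not overlap one another here. Neurog3, a transcription factor of endocrine progenitor cells, lies at chr10:62132840-62133139 on the plus strand and Nelfb, a subunit of the negative elongation factor that holds paused Pol II, at chr2:25211440-25211739 on the minus strand. Rps13, a protein of the small ribosomal subunit, lies at chr7:116334141-116334440 on the minus strand and Polr2j, a small subunit of Pol II itself, at chr5:136116441-136116740 on the plus strand.
Neurog3: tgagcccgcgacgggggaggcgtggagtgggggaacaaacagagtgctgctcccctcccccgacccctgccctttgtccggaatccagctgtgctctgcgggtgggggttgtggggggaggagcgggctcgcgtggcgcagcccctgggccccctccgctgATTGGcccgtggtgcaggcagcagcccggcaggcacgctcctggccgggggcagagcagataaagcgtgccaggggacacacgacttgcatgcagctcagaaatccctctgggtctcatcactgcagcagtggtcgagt
Nelfb: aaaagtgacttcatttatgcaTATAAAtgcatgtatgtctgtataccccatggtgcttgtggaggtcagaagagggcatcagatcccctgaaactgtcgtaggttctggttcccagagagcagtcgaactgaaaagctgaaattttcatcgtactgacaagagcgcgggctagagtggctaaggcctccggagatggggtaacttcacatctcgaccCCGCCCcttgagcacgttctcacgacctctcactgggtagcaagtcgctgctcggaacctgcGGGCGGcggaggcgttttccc
Rps13: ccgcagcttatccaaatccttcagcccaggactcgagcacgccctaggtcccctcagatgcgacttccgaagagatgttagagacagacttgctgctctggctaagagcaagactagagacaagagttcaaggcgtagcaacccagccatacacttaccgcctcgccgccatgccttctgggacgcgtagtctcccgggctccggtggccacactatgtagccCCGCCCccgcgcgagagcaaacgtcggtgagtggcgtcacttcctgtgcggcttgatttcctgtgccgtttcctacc
Polr2j: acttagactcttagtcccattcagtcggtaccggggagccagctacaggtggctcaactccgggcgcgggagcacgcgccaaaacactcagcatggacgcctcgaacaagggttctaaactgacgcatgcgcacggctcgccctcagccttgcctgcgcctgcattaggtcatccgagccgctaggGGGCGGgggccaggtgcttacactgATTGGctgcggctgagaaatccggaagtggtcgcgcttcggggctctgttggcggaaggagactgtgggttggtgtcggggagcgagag

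Within 1 kb of the Neurog3 start, signal per base was 22.8, 16.5 and 12.8 in adult GV and 21.2, 8.80 and 4.97 at p20. At the Nelfb start it was 11.3, 5.98 and 5.40 in adult GV and 4.87, 4.85 and 13.6 at p20, so both starts were occupied at both stages and the groups overlapped. The Rps13 start had no peak in adult GV and 0.80, 6.60 and 5.46 at p20. The Polr2j start likewise had none in adult GV and 0.98, 4.94 and 4.44 at p20. Neurog3 also held H3K27me3, a mark of silent genes described below, at 2.60, 12.6 and 6.38 per base of gene in adult GV and 5.53, 7.48 and 7.13 at p20. Nelfb had none of that mark. The 4 printed starts share a high density of CG dinucleotides, with 19, 16, 22 and 25 in the order printed against a median of 7 over all 32851 promoters of the same length. Nelfb held TATAAA, at base 22 of the printed 300 and so far upstream of where a TATA box acts; 13.6% of those promoters hold these letters. Neurog3 and Polr2j each held CCAAT (37.4% of all promoters do), and Nelfb, Rps13 and Polr2j held GGGCGG (35.7% of all). Both kinds of start, with and without adult GV peaks, held CCAAT and GGGCGG matches, and a match of letters is a description and not a bound site. Of 82 genes named by the rule of choice or followed here, 61 had an entry in the promoter table. Among those with exactly 1 entry, 3 had a peak at the start in all 6 libraries (the third was Rsl24d1) and 6 had one in the 3 p20 libraries only.

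Across all promoters with enough signal, none passed the test. Of 2365 promoters tested, 0 (0%) were called with limma at an adjusted p of 0.05, while 99 had an unadjusted p under 0.05, of which 96 were lower in adult GV and 3 higher.

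Along genes, Pol II peaks lay mainly towards the 3′ end and beyond it, at both stages. Among 1236 protein coding genes of at least 10 kb with at least 100 CPM of RNA at p20 (CPM, RNA reads of the gene per 1000000 counted), the last 10% of the gene was covered by peaks over 6.13, 9.97 and 8.39% of its bases in adult GV libraries and 18.8, 17.0 and 18.7% in p20 libraries. The means, 8.16 ± 1.93% and 18.1 ± 1.02%, differed 2.22-fold, and no adult GV library reached a p20 library. In the first 10% the coverage was 0.836, 1.93 and 1.43% in adult GV and 3.08, 3.68 and 3.26% at p20, 2.39-fold apart. Within 1 kb of the start it was 0.625, 1.51 and 1.17% against 2.66, 3.22 and 2.71%, or 2.60-fold. The middle of the gene lay between, at 3.55, 6.24 and 5.05% against 11.9, 10.9 and 11.3%. Coverage thus rose from start to end at both stages, and the p20 libraries were higher at each position. Without adult GV library 1 the fold was 1.98 in the last 10%, 1.99 in the first 10% and 2.14 around the start.

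Coverage continued downstream of the annotated end. In the first 5 kb past it, coverage was 6.07, 9.71 and 8.16% in adult GV and 17.0, 15.5 and 16.6% at p20, 2.05-fold apart. Between 5 and 10 kb past the end it was 2.96, 5.21 and 4.55% against 9.95, 9.30 and 11.1%. The highest 500-bp bin was centred 0.75 kb past the end at p20, at 21.0%, and 1.25 kb past the end in adult GV, at 9.99%. At the start there was a small local rise: the bin centred 0.25 kb before it had 3.90% at p20 and 1.67% in adult GV, against 2.08% and 0.823% at 1.25 kb before it. With the common floor the fold between stages was 1.96 around the start, 1.66 in the first 10%, 1.89 in the last 10% and 1.76 in the first 5 kb past the end.

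**Figure D2:**
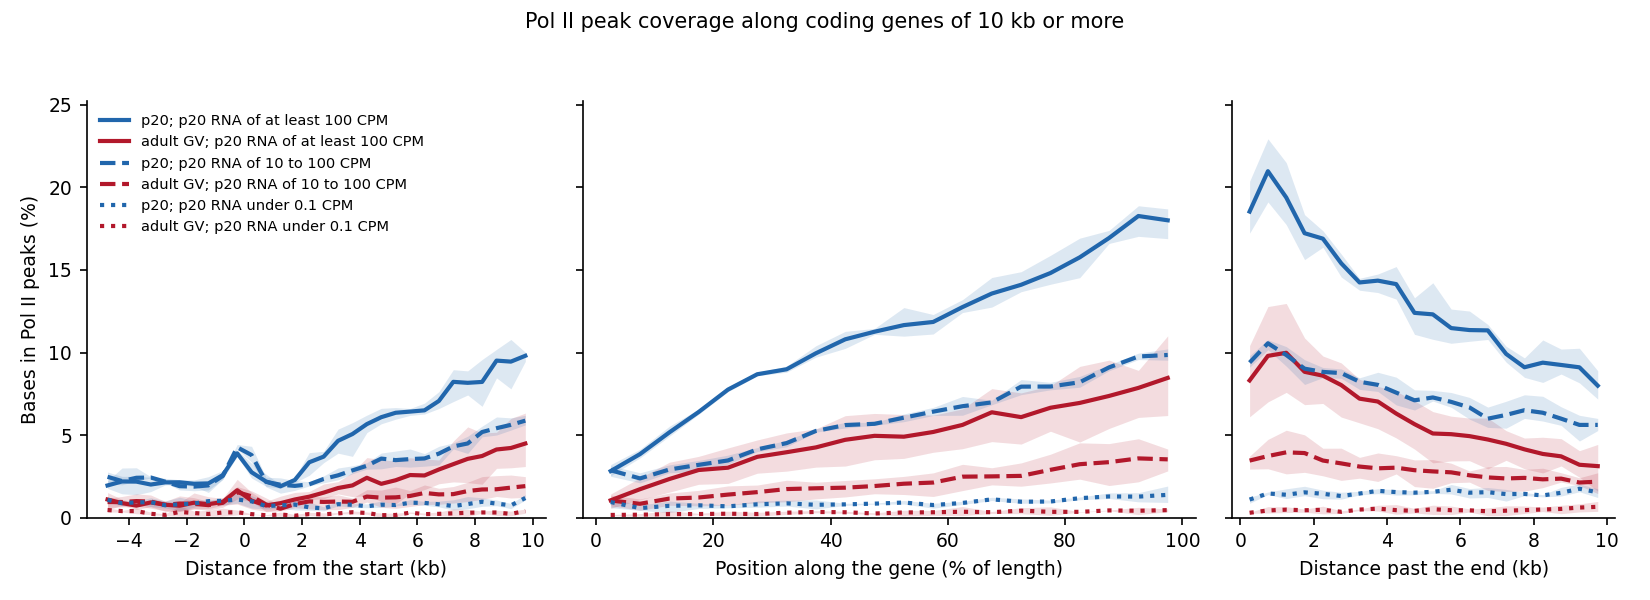
Percent of bases in Pol II peaks along protein coding genes of at least 10 kb, from upstream of the start through the scaled gene to 10 kb past the end, for genes in 3 classes of p20 RNA level (line styles); lines are means of 3 libraries, shading their lowest to highest values. Coverage climbs from the start to the 3′ end and peaks just past it, at 21.0% for p20 and 9.99% for adult GV in the genes with at least 100 CPM, and stays low along genes with under 0.1 CPM.

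The slope along the gene did not separate the stages in genes of at least 100 CPM. There the ratio of coverage in the last 10% to that in the first 10% was 7.33, 5.16 and 5.89 in adult GV and 6.09, 4.60 and 5.73 at p20, and the groups overlapped. The mark H3K27me3, deposited by Polycomb repressive complex on silent genes and profiled in oocytes of the same stages, ran the other way over these genes, with ratios of 0.0837 to 0.437 in adult GV and 0.109 to 0.188 at p20. Genes with 10 to 100 CPM were covered over 3.57 ± 0.992% of the last 10% in adult GV and 9.81 ± 0.154% at p20, below the class of at least 100 CPM. Around their starts, coverage was 1.14% and 3.19%, which was not below that class. The 1575 genes under 0.1 CPM had little Pol II, 0.446% in adult GV and 1.34% at p20 in the last 10%. Their ratio of last to first 10% was 2.51, 2.56 and 2.32 in adult GV against 1.79, 2.02 and 1.46 at p20, without overlap, and the stages did not overlap with the common floor either. At their starts H3K27me3 peaks covered 18.4% of bases in adult GV and 25.8% at p20, against 0.262% and 0.964% for Pol II.

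Fewer genes carried a Pol II peak in adult GV than at p20. Of 34324 genes, 6319, 9034 and 8328 held a peak in adult GV libraries and 12450, 14012 and 13260 in p20 libraries. In all 3 p20 libraries 8697 genes had a peak and in all 3 adult GV libraries 3801. The genes shared by both sets numbered 3605, which is 94.8% of the adult GV set and 41.5% of the p20 set. The shared genes were long and expressed, with a median of 56.7 kb and 58.1 CPM of RNA at p20. A peak in all 3 p20 libraries and no adult GV library was seen at 1042 genes, with a median of 22.7 kb and 3.57 CPM, and at 422 with the common floor. The reverse was seen at 8 genes, and at 31 with the common floor. Without adult GV library 1, which asks for a peak in 2 adult GV libraries and not 3, the adult GV set held 5598 genes and the shared set 4863, while 1353 genes had peaks at p20 only and 62 in adult GV only. The 8 were Fbxw5 and its overlapping neighbour C8g, Zfp964, Cd101 and the unnamed models 1700047A11Rik, 4933428C19Rik, Gm34557 and Gm41533.

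The share of genes with a Pol II peak rose with their RNA level at both stages, measured in ribosome-depleted RNA libraries of control oocytes (8 per stage). The titles of these RNA libraries group them into sets with a shared label at each stage. The 8 libraries of a stage need not be independent, and an SD over them is a spread between libraries only. Among protein coding genes under 0.1 CPM at the same stage, 6.79% had a peak in all 3 libraries at p20 and 1.80% in adult GV. With 1 to 10 CPM these shares were 34.7% and 12.4%, with 10 to 100 CPM 56.3% and 25.7%, and with at least 100 CPM 82.3% and 53.3%. In this highest class, the share with a peak was 65.7, 79.0 and 74.1% in single adult GV libraries and 89.1, 90.9 and 90.7% in single p20 libraries, without overlap. With the common floor the shares in all 3 libraries were 71.8% at p20 and 52.4% in adult GV. With all peaks, 66.0% of the genes in this class had a peak in both adult GV libraries 2 and 3. The p20 share was higher in each RNA class with either set of peaks. At p20 the shares of lower classes moved more in proportion to their size, though not always in percentage points. Under 0.1 CPM and with 1 to 10 CPM the common floor gave 3.41 and 22.5% at p20, against 1.75 and 11.55% in adult GV. Without adult GV library 1, the adult GV shares of all peaks in these 2 classes were 3.43 and 20.5%. As the classes hold different gene lengths and a longer gene can meet a peak more easily, length moves with this order and its part was not tested: the median length was 6.99 kb under 0.1 CPM and 44.5 kb at 100 CPM or more at p20.

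**Figure D3:**
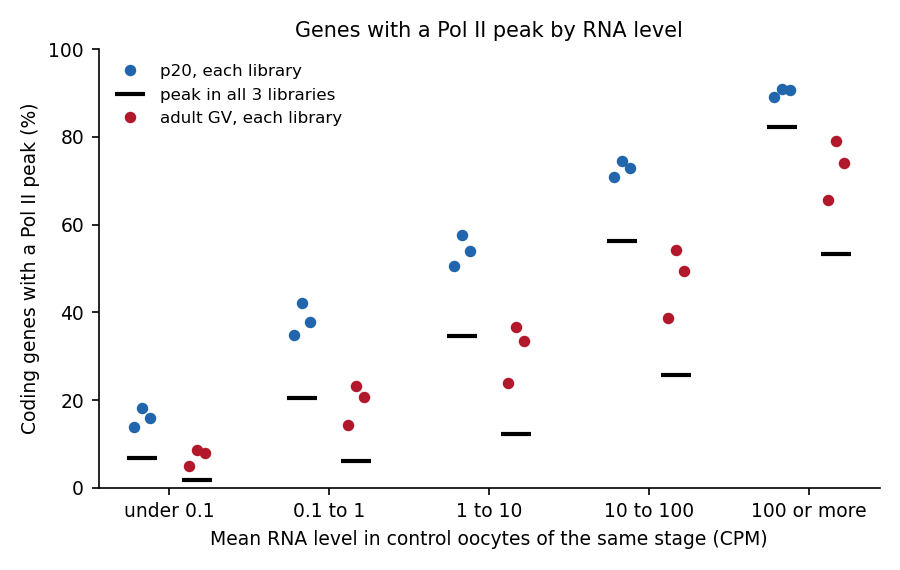
Percent of protein coding genes with a Pol II peak in each adult GV and p20 library, by the RNA level of the gene in CPM at the same stage; points are libraries and black dashes the share with a peak in all 3. The share climbs with RNA level at both stages, and in the highest class spans 65.7 to 79.0% in adult GV against 89.1 to 90.9% at p20.

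RNA levels differed little between the stages at the median gene, whether or not it had an adult GV peak. Among genes with at least 1 CPM at p20, the median log2 difference of RNA, adult GV minus p20, was −0.02 for the 530 genes with peaks in the 3 p20 libraries only, −0.05 for the 2958 genes with peaks in all 6 and −0.03 for all 11401 genes. CPM are shares of each library's reads and do not show a change in total RNA.

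Gene by gene, few differences passed the test in the main fit. Signal per base of gene (peak signal over the gene and, where its strand is known, the 1 kb before its start, divided by that length) was compared on the log2 scale with a pseudocount of 0.0466 over 14459 genes. With limma and Benjamini-Hochberg adjustment, 72 genes (0.498%) passed an adjusted p of 0.05: 71 (0.491%) lower in adult GV and 1 (0.00692%) higher. The smallest adjusted p was 0.031, and 1695 genes had an unadjusted p under 0.05, of which 1628 were lower. Without regard to the test, all 3 adult GV libraries lay below all 3 p20 libraries at 2466 genes (17.1%) and above them at 180 (1.24%). The median log2 difference over all tested genes was −0.66, −0.41 after dividing by each library's total signal in peaks and −0.39 at the common floor. By percent of the gene's bases in peaks it was −1.015, with 474 genes called lower and 4 higher. Values and tallies of genes below are in signal per base unless stated, and the 2 measures can differ in direction.

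Nearly all called genes had no adult GV peak. Of the 71 called lower, 70 had none in adult GV, and 66 of those had p20 peaks above the common floor in all 3 libraries. They were short, with a median of 3.98 kb against 27.9 kb for all tested genes, and 26 of the 72 were long noncoding RNA genes, against 3146 of the 14459 tested. A fold against a group at 0 cannot be given, and the fitted log2 difference of such a gene depends on the pseudocount. Such a gene entered the test through the other group alone and had no spread in the group at 0. Its call restates in which libraries a peak was listed, so its adjusted p is not used as support. The calls depended on single libraries: leaving out adult GV library 1 or any 1 p20 library gave 0 calls, leaving out adult GV library 2 gave 163 lower and 5 higher, and leaving out adult GV library 3 gave 62 lower and 1 higher. With the common floor 22 of 11952 genes (0.184%) were called, all lower, and 21 of them were among the 72.

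Among the genes called lower, Polr2j had no adult GV peak and a signal per base of 3.19, 2.39 and 3.29 at p20 (chr5:136116691-136122947). Rps13 had none in adult GV and 1.497, 3.58 and 4.59 at p20 (chr7:116331507-116334190). Maf1, a repressor of RNA polymerase III, had none in adult GV and 3.51, 3.77 and 2.69 at p20. All 3 genes had a peak in each p20 library and none in adult GV. RNA of Polr2j was 48.3 ± 5.83 CPM in adult GV and 50.2 ± 3.41 CPM at p20 (n = 8 each). In the same order RNA of Rps13 was 9.38 ± 1.37 and 8.00 ± 0.985 CPM, and that of Maf1 2.90 ± 1.64 and 7.15 ± 2.62 CPM. The neuropeptide precursor gene Trh had none in adult GV against 3.16, 4.68 and 2.42 at p20. The other genes named by the same rule also had no adult GV peak, and their p20 values ran from 1.13 to 5.78: the bile acid receptor gene Gpbar1, the orphan receptor gene Gpr151, the small GTPase gene Rhoc, Mustn1, the prolyl isomerase gene Fkbp2 and Sft2d3.

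A pair of genes stood apart from that pattern. Fem1al, singled out after its values were seen, had peaks in adult GV at 1.76, 2.39 and 1.77 against 10.2, 10.8 and 7.03 at p20, 0.210-fold (log2 difference −2.21, SE 0.29, limma adjusted p = 0.045). It overlaps Eml6, at chr11:29822395-29825668, so that signal of either gene is counted for both. Fbxw5, a substrate receptor of a ubiquitin ligase, was the gene called higher, with 2.55, 1.77 and 0.91 in adult GV and no p20 peak (chr2:25500750-25505470). It entered the test through adult GV alone, and no gene was called higher with the pseudocount multiplied by 4 or at the common floor. It overlaps C8g, and its RNA was 15.2 ± 2.41 CPM in adult GV and 17.1 ± 3.07 CPM at p20.

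The median difference lay nearer 0 in the genes with the most Pol II per base than in genes of middle rank. Ranked by the mean over the 6 libraries, genes 1 to 100 had a median log2 difference of −0.28, genes 101 to 500 of −0.50, genes 1001 to 2000 of −0.86 and genes 2001 to 4000 of −0.95. With the common floor these were −0.25, −0.44, −0.72 and −0.67, and after division by total signal +0.15, −0.07, −0.47 and −0.58, so the direction of the first class depends on the scaling. Of genes 1 to 100, 88% had a peak in all 3 adult GV libraries and 100% in all 3 p20 libraries. Among genes 8001 to 14459 these shares were 11.6% and 44.4%, and the median difference was −0.45, with the median gene at 0 in each adult GV library. The strongest 100 held 12 genes with all adult GV libraries below p20, against 17.1% of all tested genes. All adult GV libraries lay above p20 at 5 of the 100, against 1.24% of all tested genes, namely Msantd1, Pik3cd, Btg1c, Dnmt1 and Tincr. The ranking used both stages and these classes were not tested.

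**Figure D4:**
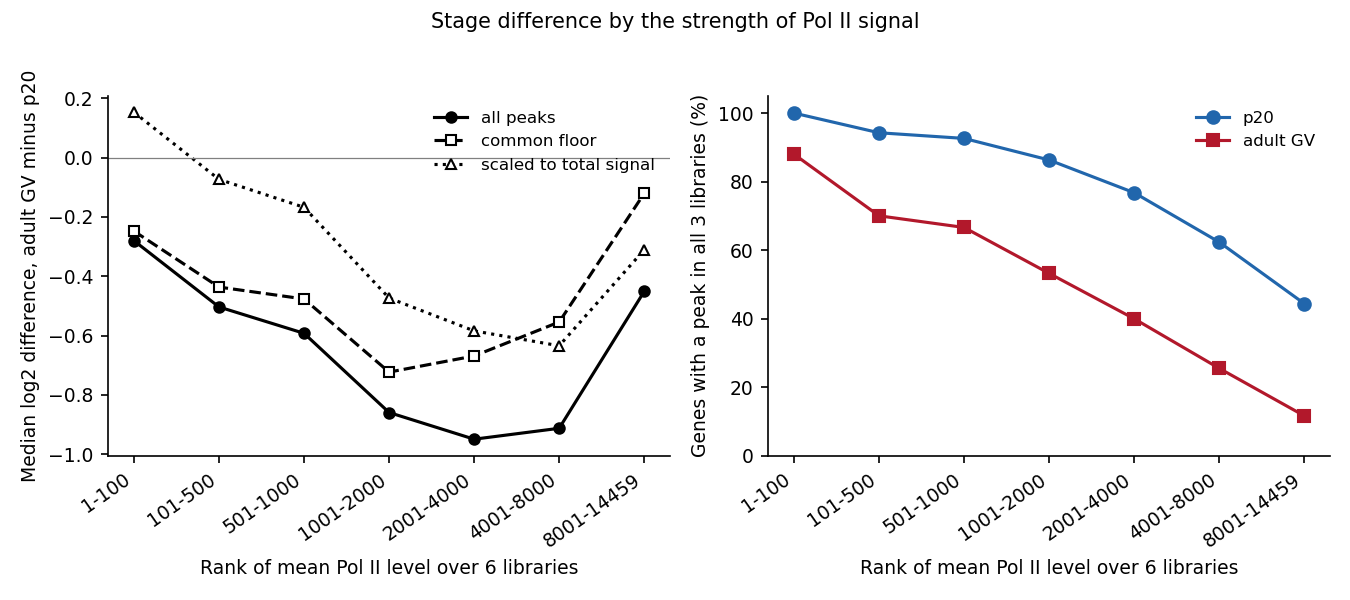
Left, median log2 difference of Pol II signal per base of gene, adult GV minus p20, by rank class of the mean over the 6 libraries, for all peaks, at the common floor and after scaling to total signal in peaks; right, percent of genes of each class with a peak in all 3 libraries of a stage. The median falls from −0.28 in the strongest 100 genes to −0.95 in genes 2001 to 4000; the strongest class lies at +0.15 after scaling.

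Several genes of the oocyte's maternal programme carried Pol II in every library of both stages. Padi6, a peptidylarginine deiminase needed for oocyte cytoplasmic lattices, had 13.1, 15.2 and 16.3 in adult GV and 15.7, 12.7 and 12.4 at p20 (log2 difference 0.13, SE 0.19, limma adjusted p = 0.80; chr4:140727355-140742643). Nlrp5, a core member of the subcortical maternal complex, had 12.4, 7.74 and 10.4 against 12.8, 7.99 and 13.2 (adjusted p = 0.88; chr7:23385889-23441923). At both genes the groups overlapped, while Padi6 RNA was 1102 ± 147 CPM in adult GV and 1725 ± 183 CPM at p20 (n = 8 each). Zbed3, another gene of this complex, had 9.38, 8.68 and 10.2 against 11.8, 8.23 and 9.56. Of the 17 genes listed for the complex and the oocyte Nlrp family, 16 were tested, 0 were called and 12 had a peak in all 6 libraries. In signal per base, adult GV lay wholly below p20 at 0 of those tested, against 17.1% of all genes. The list's median log2 difference was −0.39, against −0.66 for all genes, and +0.04 after scaling.

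Dnmt1, the maintenance DNA methyltransferase that the oocyte stores in quantity, had higher Pol II signal per base in adult GV. The values were 15.2, 12.6 and 11.3 in adult GV and 10.2, 6.79 and 9.15 at p20, without overlap and 1.49-fold apart. It did not pass the test (log2 difference 0.58, SE 0.24, limma adjusted p = 0.33; chr9:20907206-20959888). Peaks covered 58.0, 65.9 and 54.3% of its bases in adult GV and 67.35, 57.2 and 68.0% at p20, with overlap. Pik3cd, a catalytic subunit of phosphoinositide 3-kinase, had a signal per base of 10.7, 9.89 and 11.1 against 7.92, 6.71 and 6.34 (1.51-fold, adjusted p = 0.29). The share of its bases in peaks ran the other way, at 31.9, 50.6 and 47.3% in adult GV against 65.0, 56.7 and 53.4% at p20, without overlap. The region over the 3′ ends of Pik3cd and its convergent neighbour Clstn1, chr4:149644794-149662698, reached a signal per base of 23.6, 19.8 and 22.3 in adult GV and 16.2, 13.3 and 15.8 at p20. Uhrf1, which guides Dnmt1 to hemimethylated DNA, had a signal per base of 6.83, 9.06 and 4.63 against 7.51, 6.11 and 7.72 and overlapped. Its share of bases in peaks was wholly lower in adult GV, at 20.7, 52.9 and 30.3% against 63.0, 55.35 and 62.6%. Tet3, the oocyte's methylcytosine dioxygenase, lay lower in signal per base in adult GV at 1.11, 1.08 and 1.15 against 3.52, 3.10 and 2.99 (adjusted p = 0.11). The methyltransferase and imprinting list had 16 genes tested, 0 called and a median of −1.26, with 3 wholly lower (18.75%, against 17.1% of all genes) and 1, Dnmt1, wholly higher (1.24% of all genes were).

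**Figure D5:**
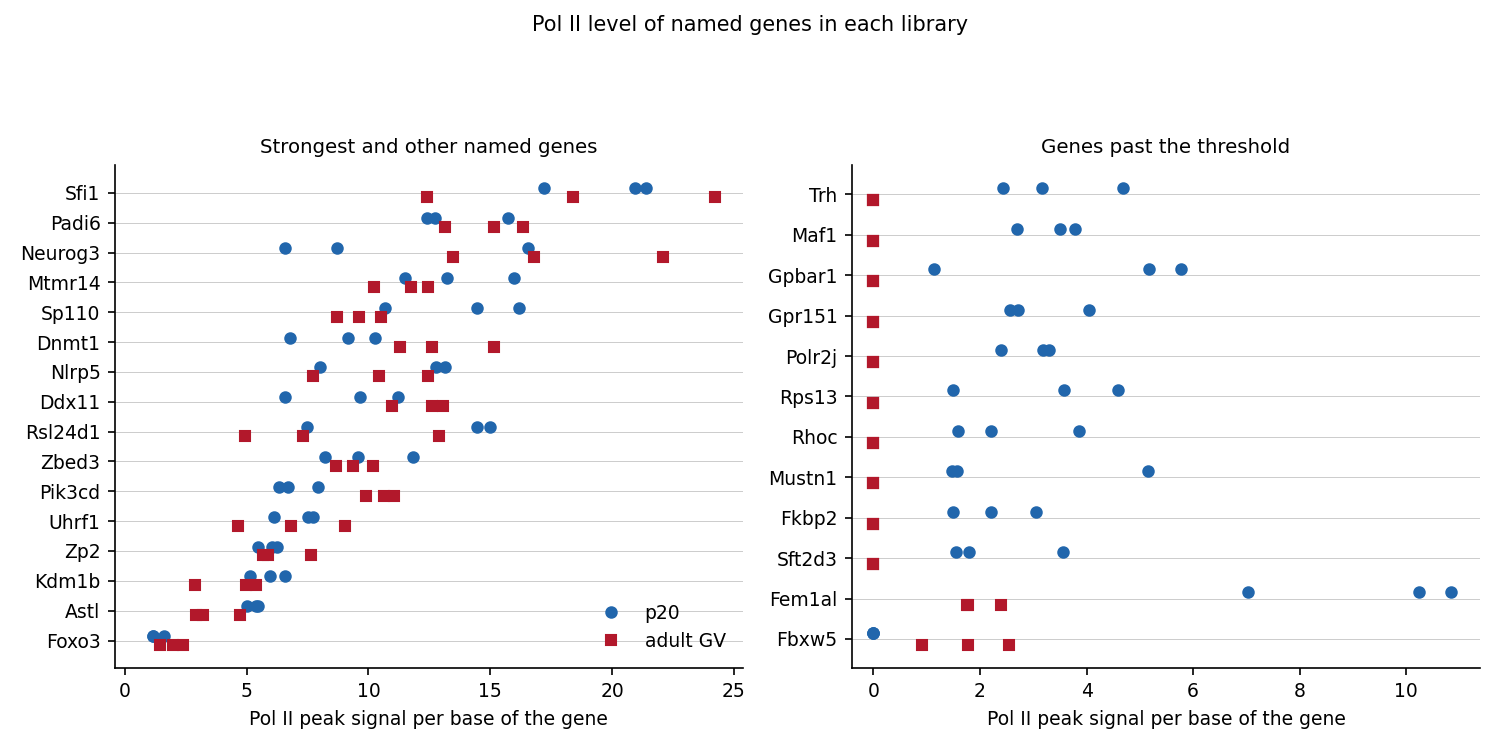
Pol II signal per base of gene in each of the 3 adult GV (squares) and 3 p20 (circles) libraries, for genes with the most signal (ribosomal protein genes and unnamed models left out) and 7 other named genes (left) and for genes past the threshold (right). In signal per base Padi6, Nlrp5 and Zp2 overlap between the stages, Dnmt1 and Pik3cd lie higher in adult GV, and Polr2j and Rps13 sit at 0 in all adult GV libraries. By percent of bases in peaks, not shown here, Nlrp5 and Pik3cd lie lower in adult GV and Dnmt1 overlaps.

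Zona pellucida genes encode the coat of the oocyte. Zp2 had 7.65, 5.67 and 5.89 in adult GV and 6.23, 6.03 and 5.47 at p20, with no separation (log2 difference 0.10, SE 0.23, limma adjusted p = 0.88; chr7:120126762-120145291). Zp1 had 0, 0.73 and 0 against 0.03, 2.10 and 2.74, and Zp3 had 0, 2.59 and 2.34 against 1.17, 0.42 and 0.60. Astl, the protease ovastacin that cleaves Zp2 after fertilization, was lower in each adult GV library at 2.92, 4.74 and 3.19 against 5.38, 5.03 and 5.47 (adjusted p = 0.33). Of 13 genes tested on this list 0 were called and 2 lay wholly lower (15.4%, against 17.1% of all genes). The growth factor genes Gdf9 (0, 1.14 and 0 against 0.42, 1.28 and 3.95) and Bmp15 (1.26, 0.55 and 0 against 0, 1.86 and 1.13) had weak, scattered peaks at both stages.

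Transcription factor genes of the oocyte had a peak at 7, 5 and 7 of 17 members in adult GV libraries and at 9 in each p20 library. Nobox had none in any library and Figla 1 in each stage, at 1.57 in adult GV library 3 and 0.61 in p20 library 1. Foxo3, which restrains follicle activation, had 1.42, 1.997 and 2.40 in adult GV and 1.14, 1.16 and 1.61 at p20, with overlap. Yy1 had 2.29, 1.69 and 1.52 against 1.09, 1.18 and 0.97, each adult GV value above each p20 value (limma adjusted p = 0.34). Of the 17 listed, 10 were tested, 0 were called, 1 lay wholly lower (17.1% of all genes did) and 2, Yy1 and Obox1, wholly higher (1.24% of all genes did), with a median log2 difference of 0.04 against −0.66 for all genes. Among the Polycomb genes 15 were tested, 0 were called, 4 lay wholly lower (26.7%, against 17.1% of all genes) and 1 wholly higher (1.24% of all genes were). Phf1 was wholly lower in adult GV at 2.37, 1.99 and 2.04 against 7.13, 2.80 and 5.17, whereas Ezh2, the H3K27 methyltransferase, was wholly higher at 1.38, 0.81 and 0.67 against 0.51, 0.33 and 0.44 (adjusted p = 0.33). Of the genes that hold the oocyte in meiosis or drive maturation 22 were tested, 0 were called (0.498% of all genes were) and 4 lay wholly lower (18.2%, against 17.1% of all genes). Bub1b, a spindle checkpoint kinase, had 2.48, 2.98 and 2.16 against 2.69, 2.41 and 2.68, and cyclin gene Ccnb3 0.13, 0.09 and 0.06 against 0.56, 0.36 and 0.41.

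Spliceosome, proteasome and ribosomal protein genes had medians below that of all genes. Among spliceosome genes 35 of 42 were tested, 0 were called, 12 lay wholly lower in adult GV (34.3% of those tested, against 17.1% of all genes) and the median log2 difference was −1.81, −1.58 after scaling and −1.33 at the common floor. Snrnp70, the U1 snRNP protein, had 0.64, 2.26 and 0.65 in adult GV and 4.22, 2.88 and 2.56 at p20 (limma adjusted p = 0.31). Proteasome genes had 26 of 31 tested, 0 called, 8 wholly lower (30.8%, against 17.1% of all genes) and a median of −1.30. The core particle gene Psma7 had 10.2, 4.08 and 7.66 against 10.6, 7.28 and 8.42. Ribosomal protein genes had 30 of 78 tested, 2 called lower (Rps13 and Rps25; 0.491% of all genes were), 4 wholly lower (13.3%, against 17.1% of all genes) and a median of −2.25. Reads of ribosomal protein genes can be shared with processed copies, so their values are uncertain.

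Pol II and elongation factor genes had 37 of 44 tested, 1 called lower (Polr2j; 0.491% of all genes were), 8 wholly lower (21.6%, against 17.1% of all genes) and a median of −0.88, or −0.24 with the common floor, where that of all genes was −0.39. Supt5, the DSIF subunit, had 0, 0.32 and 0 in adult GV and 1.08, 1.34 and 0.51 at p20. Supt6, an elongating histone chaperone, had 0.62, 0.67 and 0.21 against 0.48, 0.59 and 0.53 and overlapped. Of the exosome genes whose RNases the series deletes in other samples, 15 of 20 were tested, 0 called and 6 lay wholly lower (40% of those tested, against 17.1% of all genes), with a median of −0.66. Zcchc8, of the nuclear exosome targeting complex, had 0.63, 1.06 and 1.24 against 2.14, 1.65 and 1.84 (limma adjusted p = 0.33). Exosc6, a core ring subunit, had 0, 0 and 2.15 against 7.03, 4.25 and 4.12.

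Of 62 replication-dependent histone genes 53 had no peak in any library, and their summed signal per base was 0 to 4.08 in adult GV and 11.3 to 27.4 at p20. Of them 5 were tested, 0 were called (0.498% of all genes were) and 1 lay wholly lower (20%, against 17.1% of all genes). The strongest, H3c13, had 0, 0.47 and 4.08 in adult GV and 6.54, 4.79 and 9.26 at p20, and close copies make its value uncertain. Of 21 granulosa and cumulus cell markers 6 were tested, 1 was called lower (0.491% of all genes were) and 3 lay wholly lower (50%, against 17.1% of all genes), with 5 markers holding a peak in all 3 p20 libraries and 1 in all 3 adult GV libraries. Amh, the granulosa cell hormone, was the marker called, with no adult GV peak and 4.44, 2.42 and 0.85 at p20. It entered the test through p20 alone, so the call restates where peaks were listed. Nr5a1, a steroidogenic factor of somatic gonadal cells, had 3.31, 3.17 and 0.54 against 4.94, 3.86 and 3.61. Their RNA was 1.14 ± 1.67 CPM and 0.672 ± 0.286 CPM in adult GV, and 1.33 ± 1.05 CPM and 0.476 ± 0.540 CPM at p20 (n = 8 each). Summed signal of theca and stroma markers was 1.85 to 2.98 in adult GV and 0.864 to 2.24 at p20, of blood, immune and endothelial markers 0.152 to 0.240 and 0.484 to 0.656, and of liver, muscle and brain genes 1.45 to 1.63 and 2.94 to 7.50. The part of other cell types in the Pol II difference was not tested.

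The densest sites at both stages included several with close copies in the genome. Sfi1, a centrosome protein gene with many copies, had 12.4, 18.4 and 24.2 in adult GV and 21.4, 17.2 and 21.0 at p20 and is uncertain for that reason, as are Sp110 (10.5, 8.70 and 9.59 against 16.2, 10.7 and 14.5) and Ddx11. Mtmr14, a lipid phosphatase gene, had 10.2, 12.4 and 11.7 against 16.0, 11.5 and 13.2. An intergenic block at chr8:123537179-123625203 had 8.52 to 10.9 over the 6 Pol II libraries and 9.25 to 19.2 for H3K27me3 in the same stages. The Dnmt1 block at chr9:20899952-20947442 had 8.27 to 17.8 for Pol II and 0 to 0.065 for H3K27me3, and the Nlrp5 block at chr7:23393644-23438786 9.26 to 16.1 and 0. The high Pol II signal at these maternal genes was not seen in the other mark, whereas the intergenic block was high in both. Neurog3 also held both, with H3K27me3 at 2.60 to 12.6 over the 6 libraries. The Sfi1 blocks reached 4.06 and 5.83 for H3K27me3 in the highest library.

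The stage difference in H3K27me3 was smaller in value than that in Pol II, but the difference between the marks was not significant. Covered length of H3K27me3 peaks differed by −0.52 on the log2 scale (adult GV minus p20; exact permutation p = 0.4, n = 3 each), against −1.41 for Pol II. The contrast of both, −0.89, had an exact permutation p of 0.205 over 400 regroupings within marks. It was −0.36 with Pol II peaks above the common floor (exact permutation p = 0.555) and −0.17 by total signal (exact permutation p = 0.535), where H3K27me3 alone differed by −0.27 (exact permutation p = 0.1). Adult GV library 2 for H3K27me3 stood apart, with 202628 peaks against 98190 and 87394 in the others and 11.2% of peak bases on the X chromosome against 2.92% and 3.27%, and without it the contrast was −0.52 (exact permutation p = 0.54). Pol II peak bases within H3K27me3 peaks of the same stage, in at least 2 of its 3 libraries, were 2.23, 1.84 and 1.99% in adult GV and 2.24, 2.72 and 2.47% at p20. The H3K27me3 territory was itself 51.2 Mb in adult GV and 101.5 Mb at p20.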

How the data were processed

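Pol II CUT&Tag peak lists of 6 control libraries were analysed, with H3K27me3 peak lists and RNA counts of control oocytes of the same stages. Per the submitters' processing notes, the tools included cutadapt 2.5, STAR 2.7.2a, SAMtools 1.9, HTSeq 0.9.1, DESeq2 1.24.0 and SEACR (no version given) on mm10, without roles; per the series' design text, reads were sampled to 3000000 per library without removing duplicates. The deposited peak signal is a pileup per peak as the authors' caller wrote it, with total and maximum values; its scaling, control track and threshold are not given in the sources used here. Peaks were called per library. The deposited RNA counts are whole reads per gene, totalling 16043788 to 31364267 per library, and were turned into CPM. Peak depth beyond the sampled reads is unknown, so intervals from counting are not given.

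Genes and promoters came from RefSeq GRCm38.p6 (34324 genes; the strand and start of 26793, 78.1%, were known, and the others were used without the 1 kb before the start, a departure from the design). A peak's signal was shared out by bases. Genes with a value above 0 in at least 2 of 6 libraries entered limma 3.58.1 in R 4.3.3 on log2(value + 0.0466); promoters used 0.514. A fold change on this scale understates low genes. Library values were compared by exact permutation. Data were simulated for this comparison with normal noise (14459 genes, 200 changed). The changed genes were drawn only from genes with less than the median spread between libraries. Among them a log2 change of 4 was recovered in 69% and one of 2 in 0%, with 5 false calls in the former. Recovery in genes with more spread, or with many values at 0, was not simulated. Named genes were the 3 with the most signal per list, the 10 with the largest called difference in each direction (above the median signal, no overlap between groups), the 10 with the most signal of all genes, unnamed models left out of the last 2, and 7 oocyte genes. Not every gene that the rule names is reported here. Pik3cd, Clstn1, Fem1al, Amh and other genes quoted with values were chosen after their values were seen. The comparison, members and lists were chosen with earlier results of these data known. Alternatives were common and median floors, joined peaks, other pseudocounts, filters, scaling, promoter widths, gene sets, a replicate block and leaving out each library. IgG libraries were not used here. Of knockout Pol II lists, only the floors, numbers of peaks, shares below the common floor and signal of Dis3-deleted adult GV oocytes are given. In addition, 1 alternative fit included that group.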

Additional observations from a re-analysis of the deposited data

Results flagged for a closer look

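Among the RNA levels of 16 genes in 2 groups of 8 control libraries, 3 libraries lay far from the rest of their group by Dixon's test at its 95% level, which chance does in about 1 of 20 groups. The highest adult GV library for Sfi1 had 17.51 CPM, with the nearest other library at 10.25 CPM. The highest p20 library for Dnmt1 had 5870 CPM, with the nearest other at 4765 CPM. The lowest p20 library for Nobox had 312.6 CPM, with the nearest other at 392.3 CPM. That rate is for independent libraries, and the titles group the 8 of each stage into sets with a shared label, so it need not hold. Groups of 3 Pol II libraries were not tested this way.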

How the results depend on the processing

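The lower number, length and signal of adult GV peaks and their higher signal per base kept direction when any library was left out: the log2 difference in number ranged from −1.68 to −1.25, in length from −1.59 to −1.15, in total signal from −0.50 to −0.37, in width from 0.056 to 0.117 and in signal per base from 0.79 to 1.098. Above the median signal, total signal turned to 0.048 and width to −0.238; width also turned to −0.146 when peaks within 1 kb were joined and to −0.094 at the common floor. There the share in gene bodies turned to −2.61 percentage points and that between genes to 3.05. Leaving out 1 library, gene bodies gave 1.15 to 1.98, sequence between genes −1.97 to −1.05, promoters with a peak −6.03 to −4.90, the promoter share −0.197 to 0.00018, and the contrast with H3K27me3 −1.11 to −0.52.

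Median overlaps were 10.3, 20.4, 6.65 and 16.8% when at least 50% of a peak had to be covered (adult GV in adult GV, adult GV in p20, p20 in adult GV, p20 in p20), and 28.3 and 16.3% across stages at the common floor. Genes called lower numbered 229 and 35 with the pseudocount divided and multiplied by 4, 614 with a value in at least 3 libraries, 23 after scaling, 474 by percent of bases in peaks, 0 above the median signal, 24 over genes that overlap no other and 22 at the common floor. Genes called higher were 4, 0, 9, 0, 4, 0, 0 and 0 in the same order, and 3 with all Pol II groups in the fit. Members of the lists called lower were 8, 2, 17, 2, 14, 0, 1 and 2 in that order. The replicate block gave 0 lower, 0 higher and 0 list members. The correlations of same-numbered deviations were −0.00788, −0.00991 and 0.00355. Such values, from groups of 3 libraries, cannot tell whether same-numbered libraries shared more than a number. Leaving out 1 library gave 0 to 163 lower, 0 to 5 higher, 0 to 5 list members and 0 promoters.

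At the common floor, genes with peaks in the p20 libraries only numbered 422 and in the adult GV libraries only 31, and the p20 shares by RNA class were 3.41, 12.5, 22.5, 41.6 and 71.8%. Without adult GV library 1, genes with peaks in adult GV only numbered 62, and the adult GV shares by RNA class were 3.43, 11.3, 20.5, 37.2 and 66.0%, since a peak was then needed in 2 libraries and not 3. Of the 13 named genes called, 0 kept the call with the block, above the median signal, or without adult GV library 1 or any 1 p20 library, and 7 kept it at the common floor. In simulated data of the main fit, log2 changes of 2 were recovered in 0% and those of 4 in 69%. The changed genes there had less than the median spread, so these shares do not cover genes with more spread. With the same 3 libraries a group, the number called lower was 614 when a value in at least 3 libraries was required, and Fem1al was called at −2.21 in the main fit. That filter admits genes with peaks in the 3 p20 libraries and no adult GV library. A call of such a gene restates where peaks were listed, so the 614 do not measure the power of the test. The causes of the differences between settings were not tested.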
